A study of Mus musculus with 6 samples.

Results

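Chemokines and chemokine receptors were followed in mouse ovarian tumours grown with or without estradiol. The members were the genes whose official symbol is that of a numbered Ccl or Cxcl ligand, Cx3cl1, Xcl1, or a numbered Cxcr or Ccr receptor, each read from a probe set that the platform annotation assigns to that gene alone. This gave 48 members, 34 ligands and 14 receptors, of 19937 genes measured. Other members of the family are not analysed here, so some ligands are described without their main receptor.

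RNA came from 6 tumours, each on 1 single-colour whole-transcript array. The E2 group held 3 tumours from SCID mice that received 17β-estradiol (E2) pellets when MASE2 cells were injected. The placebo group held 3 tumours from SCID mice that received placebo pellets at the same step. In both groups the tumours arose from MASE2, an ascites-derived cell population from a tgCAG-LS-TAg mouse that had itself been treated with E2. In that model an adenovirus carrying Cre, injected under the ovarian bursa, makes the surface epithelium of the ovary express the SV40 large and small T antigens. SCID hosts have no mature lymphocytes of the T and B lineages but retain macrophages, neutrophils, mast cells and natural killer cells. Tumours were taken at loss of wellness, and the labels give no day, age or dose. The design text calls the tumours biological replicates, and whether each came from a separate mouse is not stated. Values are RMA log2 intensities. They are compared for 1 gene across arrays and not between genes.

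Chemokines are small secreted proteins that direct the movement of leukocytes and other cells. They bind seven-helix receptors that signal through inhibitory G proteins, and the ligand families CC, CXC, CX3C and C are named for the spacing of their first cysteines. Inflammatory chemokines such as CCL2 recruit monocytes and neutrophils into damaged or malignant tissue, whereas homeostatic ones such as CXCL12 position cells in resting tissue. In ovarian cancer the CXCL12 and CXCR4 axis and CCL2 have been studied for peritoneal spread and macrophage recruitment.

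The array of placebo replicate 3 stood apart. Over all genes (genes are no independent replicates) it correlated with each other array at a Pearson r of 0.857 to 0.865, against 0.96 to 0.994 for pairs of the other 5. All 10 enterocyte markers were highest there, and the log2 of their summed signal was 13.89 on that array, against 7.77 to 8.29 on the other 5. Epithelial markers did not move together there: Krt8, Epcam and Cdh1 lay 3.24, 3.52 and 3.34 log2 above the mean of the other placebo tumours, and Wt1 lay 1.91 below it. Where a gene's difference is given below and leaving out that array changed its sign or call, both values are given. The same holds where the difference moved by over 1.5 times. In bulk tumours fewer cells of a type and less RNA per cell cannot be told apart.

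Promoters are shown for 6 members whose values are described below, as RefSeq sequence of GRCm38.p6. They cover the 250 bases before the annotated start, for the ligand and receptor pair Cxcl12 and Cxcr4, for Ccl8, and for the neighbouring neutrophil-attracting ligands Cxcl1, Cxcl2 and Cxcl3. Capitals mark GC boxes (GGGCGG, either strand) in the first 2, a TATA box (TATAAA, either strand) in Ccl8, and kappa B sites (GGG, then any 2 bases, then TTTCC, either strand) in the last 3. A GC box is a binding motif of Sp1-type factors, and a kappa B site is one of NF-kappa-B, an activator of inflammatory chemokine genes.
Cxcl12 (chr6:117168285-117168534, plus strand): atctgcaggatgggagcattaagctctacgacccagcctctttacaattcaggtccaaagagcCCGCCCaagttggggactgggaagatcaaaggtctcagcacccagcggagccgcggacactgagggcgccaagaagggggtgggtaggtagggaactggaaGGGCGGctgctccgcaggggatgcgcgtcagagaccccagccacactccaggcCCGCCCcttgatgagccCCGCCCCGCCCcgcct
Cxcr4 (chr1:128592300-128592549, minus strand): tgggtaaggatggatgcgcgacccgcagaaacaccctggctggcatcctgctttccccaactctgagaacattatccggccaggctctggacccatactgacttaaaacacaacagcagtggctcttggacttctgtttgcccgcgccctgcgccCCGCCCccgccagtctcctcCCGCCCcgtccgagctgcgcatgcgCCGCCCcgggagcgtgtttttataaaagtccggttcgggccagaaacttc
Ccl8 (chr11:82114935-82115184, plus strand): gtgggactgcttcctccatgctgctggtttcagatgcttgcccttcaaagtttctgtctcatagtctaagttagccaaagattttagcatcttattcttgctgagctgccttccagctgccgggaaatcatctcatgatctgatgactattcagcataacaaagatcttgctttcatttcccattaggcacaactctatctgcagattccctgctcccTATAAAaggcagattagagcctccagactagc
Cxcl1 (chr5:90890995-90891244, plus strand): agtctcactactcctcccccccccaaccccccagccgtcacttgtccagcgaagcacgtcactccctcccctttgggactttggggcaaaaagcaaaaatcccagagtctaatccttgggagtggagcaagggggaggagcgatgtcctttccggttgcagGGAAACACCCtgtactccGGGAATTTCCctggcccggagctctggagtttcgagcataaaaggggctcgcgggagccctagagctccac
Cxcl2 (chr5:90903649-90903898, plus strand): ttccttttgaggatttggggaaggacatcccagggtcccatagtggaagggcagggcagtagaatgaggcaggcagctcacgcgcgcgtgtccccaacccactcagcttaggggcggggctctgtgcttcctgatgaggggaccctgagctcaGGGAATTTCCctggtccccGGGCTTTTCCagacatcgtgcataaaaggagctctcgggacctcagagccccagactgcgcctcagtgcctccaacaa
Cxcl3 (chr5:90785851-90786100, plus strand): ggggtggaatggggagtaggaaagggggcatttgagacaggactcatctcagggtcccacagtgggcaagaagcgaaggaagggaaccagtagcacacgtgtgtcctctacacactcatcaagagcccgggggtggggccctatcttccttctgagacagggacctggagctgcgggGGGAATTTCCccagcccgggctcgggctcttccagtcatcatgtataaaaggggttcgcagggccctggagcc

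Of the 34 members with a promoter in that table, 6 held the kappa B letters in these 250 bases, against 1.41% of all 32851 promoters. They were Ccl20, Ccl9, Ccr3, Cxcl1, Cxcl2 and Cxcl3. The TATA letters were in 10 of the 34, against 12.4% of all promoters, and the GC box in 6, against 32.7%. Among these 34, no promoter held the full oestrogen response element (GGTCA and TGACC with any 3 bases between), which 0.0639% of all promoters held. Ccl2, Ccl7 and Ccl5 were among the members without a promoter sequence and were not searched for any motif. A single arm of it, GGTCA on either strand, was in 17 of the 34, against 35.2% of all promoters. In the stretches shown, Cxcl12 held 5 GC boxes and Cxcr4 held 3, while Ccl8 held none. The TATA letters began 32 bases before the start in Ccl8, 32 and 30 in Cxcr4, and 30 in Cxcl3. Those of Cxcr4 and Cxcl3 are not in capitals. The same 10 letters, GGGAATTTCC, stood 71, 97 and 73 bases before the starts of Cxcl1, Cxcl2 and Cxcl3, and Cxcl1 and Cxcl2 each held another kappa B match. The Cxcl12 GC boxes that begin 16 and 11 bases before the start share a base. Members were counted once per gene, with a match at any of its starts, while the share of all promoters counted each start separately. A match is a run of letters, not a measured binding site.

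No member passed the test on all 6 arrays. At a limma adjusted p under 0.05, 0 of 48 were higher and 0 lower in the E2 tumours, where 1.06% of all genes were higher and 0.326% lower (1.38% either way). At an unadjusted limma p under 0.05, 2 members were higher (all genes, 10.4%) and 5 were lower (all genes, 6.16%). With placebo replicate 3 left out, 2 members were higher (4.17%, against 6.4% of all genes) and 6 were lower (12.5%, against 5.21% of all genes, with 11.6% of all genes called either way). The higher ones were Ccl2 and Ccl7, and the lower ones were Ccl3, Ccl5, Ccl8, Cxcl12, Cxcl16 and Cxcr4.

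The groups did not overlap for 11 members. All E2 arrays lay above all placebo arrays for Ccl2 and Ccl7, or 4.17% of members against 14.9% of all genes. All E2 arrays lay below all placebo arrays for Ccl1, Ccl3, Ccl5, Ccl8, Ccl17, Ccl24, Ccr4, Cxcl12 and Cxcr1, or 18.8% of members against 11.4% of all genes. With 3 arrays against 3, an exact two-sided permutation test of 1 gene cannot go below p = 0.10. Any gene whose groups do not overlap takes that value, so the test adds nothing for these 11. The median difference of the 48, E2 minus placebo, was -0.18 log2, beside -0.01 for all genes. Without placebo replicate 3 it was -0.09 log2, beside -0.01.

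**Figure D1:**
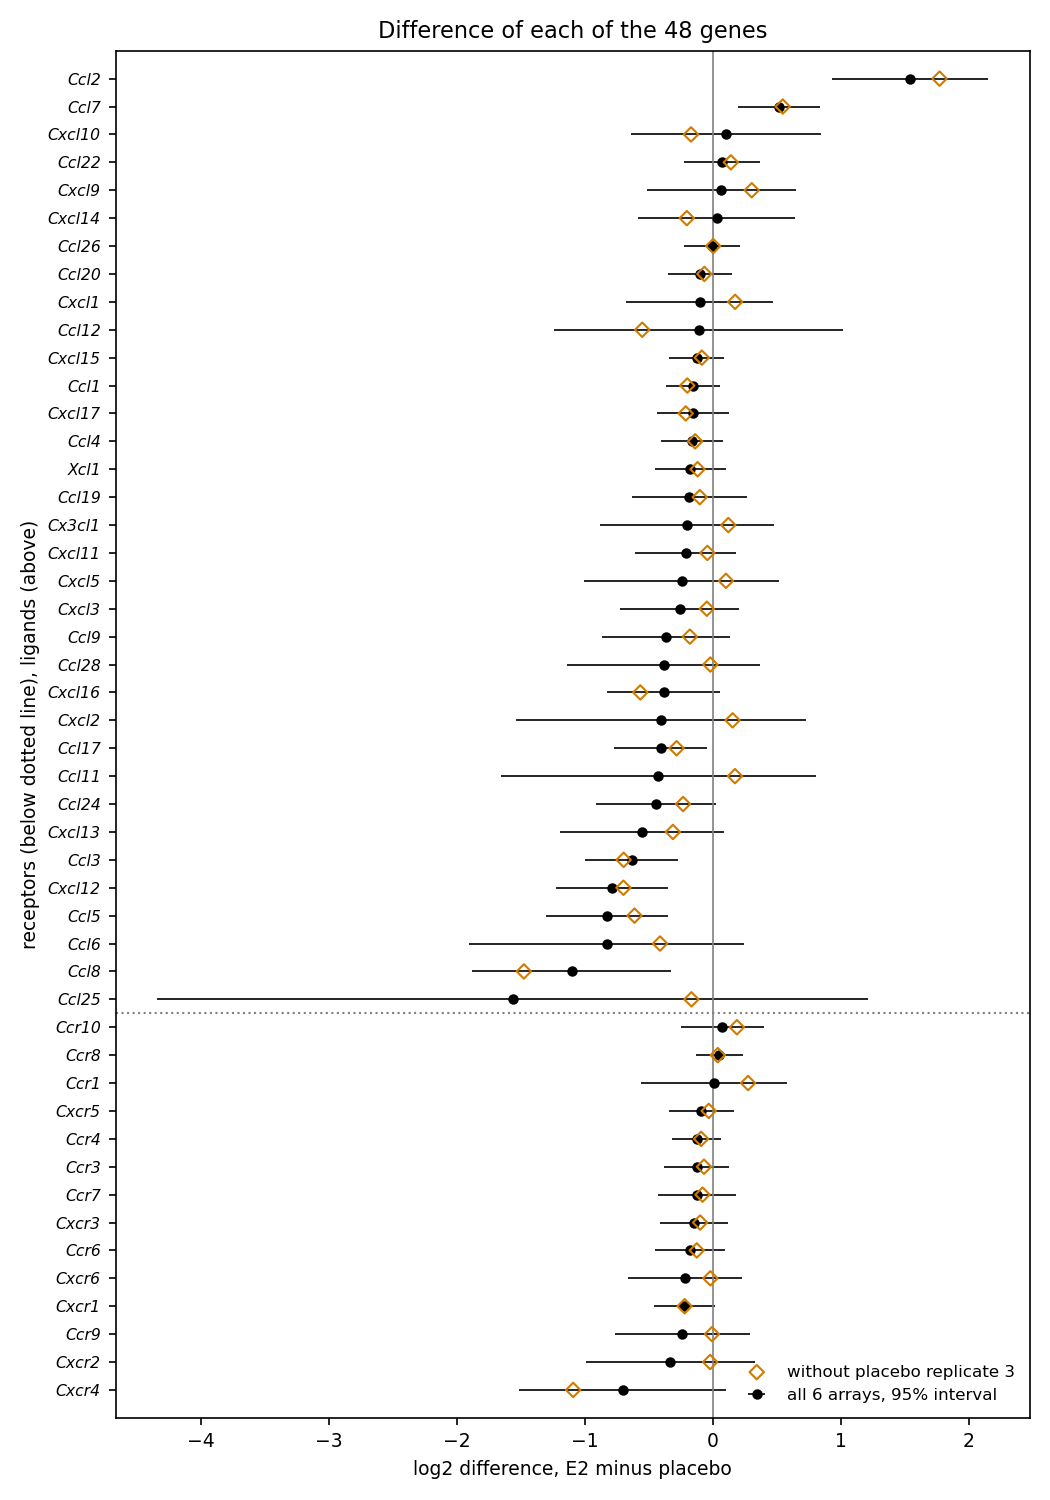
Log2 difference (E2 minus placebo, horizontal axis) of each of the 48 members, ligands above the dotted line and receptors below it. Black points are the limma estimates on all 6 arrays with 95% confidence intervals, and open diamonds are estimates without placebo replicate 3. Ccl2 lies farthest to the right at 1.54, and the wide interval of Ccl25, -4.34 to 1.22, stands beside an estimate of -0.17 when that array is left out.

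Ccl2, the main monocyte-attracting CC ligand, had the largest difference toward higher signal with E2 among the 48 members. It measured 6.74, 7.25 and 7.34 log2 in the E2 tumours, against 5.36, 5.31 and 6.03 in the placebo tumours. Every E2 tumour lay above every placebo tumour, and placebo replicate 3 was the highest of the placebo values. The group means were 7.11 ± 0.32 with E2 and 5.57 ± 0.40 with placebo (SD, n = 3 each). The difference was 1.54 log2 (SE 0.25, 95% confidence interval 0.93 to 2.15), a 2.91-fold higher signal, and missed the threshold with a limma adjusted p of 0.0534. Without placebo replicate 3 it was 1.77 log2 and passed (limma adjusted p = 0.000842).

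Ccl7, a second monocyte-attracting ligand that lies next to Ccl2 on chromosome 11, also had a higher mean with E2. It measured 5.76, 6.14 and 5.80 log2 in the E2 tumours, against 5.26, 5.45 and 5.44 in the placebo tumours, so the groups did not overlap. The difference was 0.52 log2 (SE 0.13, limma adjusted p = 0.135), and 0.55 log2 without placebo replicate 3 (adjusted p = 0.0391).

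Ccl8 lies in the same row of 6 adjacent genes as Ccl2 and Ccl7 and lay the other way. This ligand of the monocyte chemoattractant type measured 4.20, 4.02 and 4.17 log2 in the E2 tumours, against 5.70, 5.52 and 4.49 in the placebo tumours. All E2 values were under the 25th percentile of genes on their own array (the lower quartile, 4.22 to 4.39 log2 across arrays), and no detection call was used here to tell such values from background. Placebo replicate 3 lay 1.12 log2 below the mean of the other placebo tumours and was the placebo value nearest to the E2 tumours. With that quartile in place of each lower E2 value, the E2 mean of Ccl8 was 1.97-fold lower than the placebo mean. That figure is an estimate from the group means and not a lower limit. The measured difference was -1.10 log2 (SE 0.32) and did not pass (limma adjusted p = 0.176). Without placebo replicate 3 the mean taken in that way was 2.56-fold lower, and the measured difference of -1.48 log2 passed (limma adjusted p = 0.000212).

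The other genes of that row did not pass in either fit, and Ccl11 changed sign between the fits. In chromosome order the row runs Ccl2, Ccl7, Ccl11, Ccl12, Ccl8, Ccl1, and the E2 minus placebo differences were 1.54, 0.52, -0.43, -0.11, -1.10 and -0.15 log2. Leaving out placebo replicate 3, they were 1.77, 0.55, 0.17, -0.55, -1.48 and -0.20 log2. Ccl11, the eosinophil-attracting eotaxin, measured 4.78, 4.79 and 4.96 log2 in the E2 tumours, against 4.46, 4.88 and 6.47 in the placebo tumours. Ccl12, a mouse monocyte chemoattractant, measured 5.87, 5.42 and 6.61 log2 in the E2 tumours, against 6.46, 6.57 and 5.198 in the placebo tumours. The groups overlapped for both genes, and placebo replicate 3 held the highest Ccl11 value and the lowest Ccl12 value. Whether probes of these similar neighbouring genes detect one another's transcripts was not tested, so their separate values are uncertain.

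**Figure D2:**
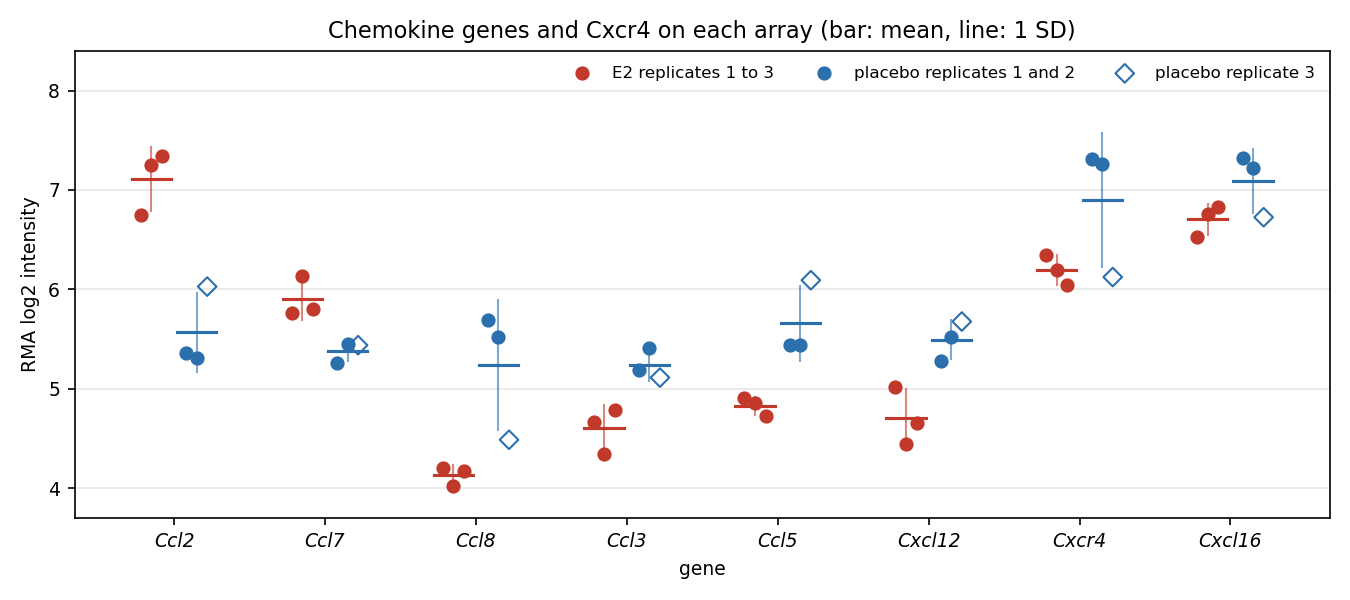
RMA log2 intensity (vertical axis) of the 8 members that passed without placebo replicate 3, on each array. Red points are E2 tumours, blue points are placebo replicates 1 and 2, open diamonds are placebo replicate 3, bars are group means over 3 arrays and thin lines 1 SD. Placebo replicate 3 lies with the E2 tumours for Cxcr4 and Cxcl16 and with the other placebo tumours for Ccl7, Ccl3 and Cxcl12. For Ccl5 it lies above all other arrays.

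A second row on chromosome 11 holds Ccl5, Ccl9, Ccl6, Ccl3 and Ccl4, and all 5 had lower means in the E2 tumours. Ccl5 (RANTES), a ligand that attracts T cells and monocytes, measured 4.90, 4.85 and 4.72 log2 in the E2 tumours, against 5.44, 5.44 and 6.09 in the placebo tumours. Every E2 value was below every placebo value. The difference was -0.83 log2 (SE 0.20, limma adjusted p = 0.119), and -0.61 without placebo replicate 3, its highest placebo value (adjusted p = 0.00647).

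Ccl3 (MIP-1-alpha), made by activated macrophages, measured 4.67, 4.35 and 4.79 log2 in the E2 tumours, against 5.19, 5.41 and 5.11 in the placebo tumours. Here the placebo arrays lay together, all above the E2 arrays. The difference was -0.63 log2 (SE 0.15, limma adjusted p = 0.116), and -0.70 without placebo replicate 3 (adjusted p = 0.0209).

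Ccl6 and Ccl9, rodent ligands that attract myeloid cells, overlapped between the groups. Ccl6 measured 6.68, 6.36 and 7.04 log2 in the E2 tumours, against 6.64, 7.57 and 8.36 in the placebo tumours. Its difference of -0.83 log2 (limma adjusted p = 0.408) went to -0.41 without placebo replicate 3, the highest array. Ccl9 measured 6.07, 6.17 and 6.55 log2 in the E2 tumours, against 6.40, 6.48 and 6.99 in the placebo tumours. Its difference was -0.36 log2 (adjusted p = 0.437), and -0.18 without placebo replicate 3, again the highest array. The difference of Ccl4 (MIP-1-beta) was -0.16 (adjusted p = 0.477). Ccl24, an eosinophil attractant outside this row, did not overlap between the groups (difference -0.44 log2, adjusted p = 0.327, and -0.23 without placebo replicate 3).

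Cxcl12, the stromal ligand that retains and attracts cells bearing CXCR4, had lower signal in all E2 tumours. It measured 5.01, 4.44 and 4.66 log2 in the E2 tumours, against 5.28, 5.52 and 5.68 in the placebo tumours. The groups did not overlap, and placebo replicate 3 was the highest array. The means were 4.70 ± 0.29 with E2 and 5.49 ± 0.20 with placebo (SD, n = 3 each). The difference was -0.79 log2 (SE 0.18, 95% confidence interval -1.23 to -0.35, limma adjusted p = 0.109). Without placebo replicate 3 the difference of -0.70 log2 passed (adjusted p = 0.0349), and with any single array left out it lay between -0.94 and -0.66.

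Cxcr4, the receptor for Cxcl12, is carried by leukocytes and by many tumour cells. It measured 6.35, 6.19 and 6.04 log2 in the E2 tumours, against 7.31, 7.26 and 6.12 in the placebo tumours. Placebo replicates 1 and 2 lay above all E2 tumours, whereas placebo replicate 3 lay among them. The difference was -0.70 log2 (SE 0.33, limma adjusted p = 0.359). Without placebo replicate 3 it was -1.09 log2 and passed (adjusted p = 0.00107). Ackr3, the atypical receptor that also binds CXCL12, had a difference of 0.14 log2 (adjusted p = 0.684), which was 0.28 in the fit that omits placebo replicate 3 (adjusted p = 0.209).

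Cxcl16 is made as a membrane-anchored ligand and its receptor is CXCR6. It measured 6.53, 6.76 and 6.83 log2 in the E2 tumours, against 7.32, 7.22 and 6.72 in the placebo tumours. Placebo replicates 1 and 2 were above all E2 tumours, and placebo replicate 3 lay between E2 values. The difference was -0.38 log2 (SE 0.18, limma adjusted p = 0.36), and -0.57 without that array (adjusted p = 0.0184). Cxcr6 measured 4.05, 3.87 and 3.89 log2 in the E2 tumours, against 3.98, 3.93 and 4.55 in the placebo tumours. It was under the lower quartile on 5 arrays, all but placebo replicate 3, and its difference was -0.22 log2 (adjusted p = 0.579), or -0.02 without that array. Cx3cl1, the other membrane-anchored ligand (fractalkine), had a difference of -0.20 log2 (adjusted p = 0.741), which took the opposite sign, 0.12, when that array was omitted (adjusted p = 0.547). Xcl1 lay below that quartile on all 6 arrays.

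The neutrophil-attracting ligands Cxcl1, Cxcl2, Cxcl3 and Cxcl5, which carry the ELR motif before their CXC cysteines, were all highest in placebo replicate 3. Cxcl1 measured 5.36, 5.32 and 5.40 log2 in the E2 tumours, against 5.21, 5.16 and 6.01 in the placebo tumours. Cxcl2 measured 4.10, 3.93 and 3.97 log2 in the E2 tumours, against 3.95, 3.74 and 5.52 in the placebo tumours. Outside that array the values of each gene lay close together, and Cxcl2 and Cxcl3 lay below the lower quartile. The differences of the 4 ran from -0.40 to -0.10 log2 with all arrays. Without placebo replicate 3 they were 0.17 for Cxcl1, 0.16 for Cxcl2, -0.05 for Cxcl3 and 0.10 for Cxcl5, so 3 of the 4 changed sign and none passed in limma.

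The interferon-induced ligands Cxcl9, Cxcl10 and Cxcl11 share the receptor CXCR3 of T cells, and none passed in either limma fit. Cxcl9 measured 5.05, 4.92 and 5.43 log2 in the E2 tumours, against 4.84, 4.82 and 5.54 in the placebo tumours. Cxcl10 measured 5.81, 5.88 and 6.50 log2 in the E2 tumours, against 6.41, 6.06 and 5.42 in the placebo tumours. Both genes overlapped between the groups. Their differences were 0.07 and 0.10 log2, and 0.30 and -0.17 without placebo replicate 3. Cxcl11 differed by -0.21 log2, and by -0.04 without that array, and Cxcr3 by -0.15 log2 (adjusted p = 0.543).

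Among the homeostatic ligands, Ccl25 set placebo replicate 3 apart most. Ccl25, the thymic and small intestinal ligand of CCR9, measured 4.72, 4.71 and 4.85 log2 in the E2 tumours, against 5.02, 4.84 and 9.12 in the placebo tumours. The single high array lay 4.19 log2 above the mean of the other placebo tumours. The difference of -1.56 log2 (SE 1.14, limma adjusted p = 0.534) was -0.17 without it (adjusted p = 0.373). A second Ccl25 probe set measured 5.18, 5.18 and 5.30 log2 in the E2 tumours, against 5.48, 5.59 and 5.08 in the placebo tumours, and did not show the high array. Ccr9 measured 3.87, 3.76 and 3.62 log2 in the E2 tumours, against 3.88, 3.63 and 4.45 in the placebo tumours, and the highest array was the same one (difference -0.24 log2, and -0.006 without it).

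Ccl28, a ligand of mucosal epithelia, followed the same pattern. It measured 4.04, 4.08 and 3.91 log2 in the E2 tumours, against 3.98, 4.08 and 5.13 in the placebo tumours. Only placebo replicate 3 lay above the lower quartile of genes. Its difference was -0.38 log2 (limma adjusted p = 0.565), and -0.02 without that array. Its receptor gene Ccr10 measured 4.85, 4.85 and 4.66 log2 in the E2 tumours, against 4.51, 4.69 and 4.94 in the placebo tumours (difference 0.08 log2, adjusted p = 0.801, and 0.19 without placebo replicate 3).

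Cxcl14, a ligand of epithelia and skin, overlapped between the groups. It measured 7.33, 7.18 and 7.69 log2 in the E2 tumours, against 7.79, 7.42 and 6.91 in the placebo tumours. Its difference was 0.03 log2 (limma adjusted p = 0.965), which changed sign without placebo replicate 3 (-0.20 log2) and when quantile normalization was repeated (-0.13 log2). Ccl19, a lymph node ligand of CCR7, measured 6.50, 7.01 and 6.72 log2 in the E2 tumours, against 6.63, 7.06 and 7.09 in the placebo tumours. The groups overlapped, and the difference was -0.18 log2, or -0.10 without placebo replicate 3. Of the 4 Ccl19 probe sets, 3 had lower means with E2 (differences -0.25 to -0.11 log2) and 1 had a higher mean (0.52 log2). Which transcripts each of the 4 detects was not tested.

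Cxcl13, the B cell ligand, measured 5.38, 5.17 and 4.92 log2 in the E2 tumours, against 5.21, 5.72 and 6.19 in the placebo tumours. The groups overlapped, and the difference was -0.55 log2 (limma adjusted p = 0.365), or -0.31 without placebo replicate 3, its highest array (adjusted p = 0.345). Its receptor gene Cxcr5 measured 3.69, 3.73 and 3.56 log2 in the E2 tumours, against 3.78, 3.60 and 3.87 in the placebo tumours, all below the lower quartile of genes. Ccl20, which attracts cells bearing CCR6, measured 4.26, 4.55 and 4.50 log2 in the E2 tumours, against 4.49, 4.52 and 4.60 in the placebo tumours. Ccr6 measured 4.21, 4.08 and 3.89 log2 in the E2 tumours, against 4.18, 4.19 and 4.35 in the placebo tumours. Ccr6, like Cxcr5, was under that quartile on every array. Leaving out placebo replicate 3 took the Cxcr5 difference from -0.09 to -0.03 log2 and the Ccl20 difference from -0.10 to -0.07.

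Ccl17 and Ccl22, ligands of the receptor CCR4 of T cells, lie on either side of Cx3cl1 on chromosome 8. Ccl17 did not overlap between the groups (difference -0.41 log2, limma adjusted p = 0.258), and Ccl22 differed by 0.07 log2 (adjusted p = 0.798, and 0.14 without placebo replicate 3). Ccl1, a ligand of CCR8, also did not overlap (difference -0.15 log2, adjusted p = 0.433). Among the remaining ligands, Cxcl15 and Cxcl17 differed by -0.12 and -0.15 log2, and the Ccl26 groups lay closest together of all 48 members.

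Among the receptors, Cxcr4 alone passed in the fit without placebo replicate 3. Of the 14 receptors, 5 were under the lower quartile on all 6 arrays (Ccr3, Ccr4, Ccr6, Ccr8 and Cxcr5), and 3 lay at or above it on all 6 (Ccr7, Ccr10 and Cxcr4). These counts describe the signal of each probe set on its array, and levels are not compared between genes. Without Cxcr4, the receptor differences ran from -0.33 log2 for Cxcr2, a receptor of neutrophils, to 0.08 for Ccr10. Leaving out placebo replicate 3, they ran from -0.22 for Cxcr1 to 0.28 for Ccr1, and that of Cxcr2 was -0.02. Ccr4 and Cxcr1 did not overlap between the groups, with differences of -0.12 and -0.22 log2 (limma adjusted p = 0.482 and 0.333). Ccr1, a receptor of Ccl3 and Ccl5, had a difference of 0.01 log2 (adjusted p = 0.985), which was 0.28 with placebo replicate 3 left out (adjusted p = 0.139).

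Placebo replicate 3 held the highest value for most members. It held the highest of the 6 values for 33 of the 48 members (68.8%), against 27.9% of all genes. It held the lowest for 4 members, against 6571 of all 19937 genes. It lay at least 1 log2 above the mean of the other placebo tumours for Ccl25, Ccl11, Cxcl2, Ccl6, Ccl28 and Cxcl5. These were 6 of the 48 members, against 1035 of all 19937 genes. Placebo replicate 3 lay at least 1 log2 below that mean for Ccl12, Cxcr4 and Ccl8, or 3 members, against 982 of all 19937 genes. Means were lower with E2 for 39 of the 48 members (81.2%, against 51.7% of all genes), and for 35 (72.9%, against 52.5%) without that array. The lower quartile of genes was 4.31, 4.22 and 4.23 log2 on the E2 arrays, against 4.31, 4.32 and 4.39 on the placebo arrays. On all 6 arrays 24 of the 48 members lay at or above it, against 13821 of all 19937 genes. The shares in this paragraph were not set against genes of like signal, so the part of low signal in them was not tested.

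**Figure D3:**
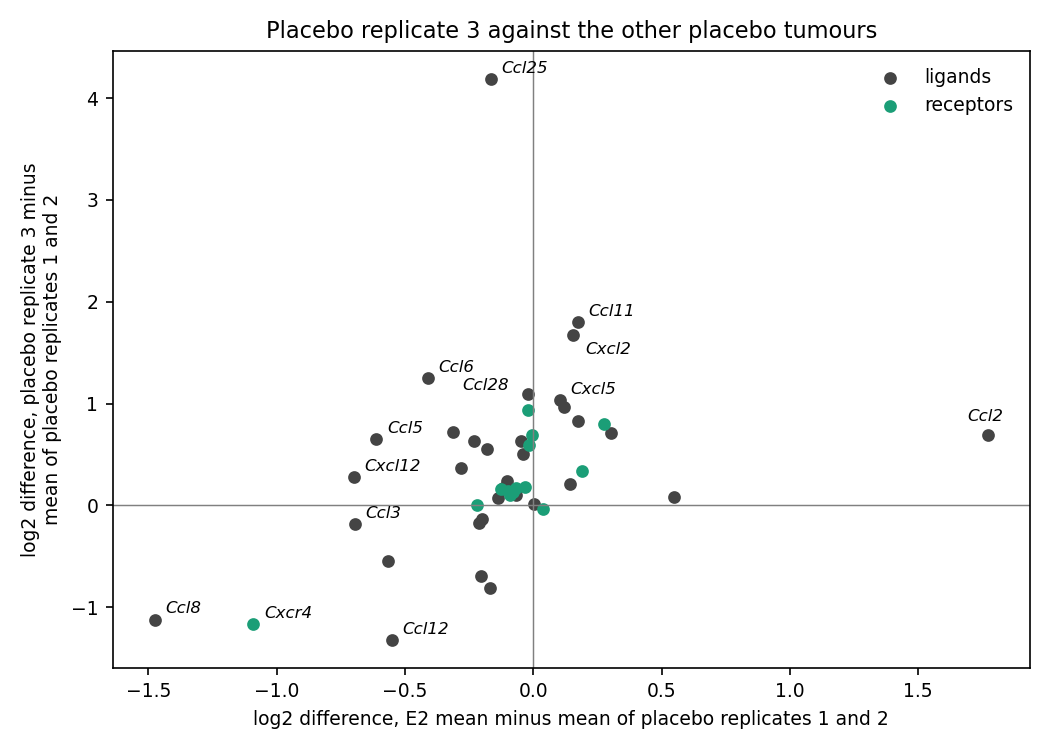
Each point is 1 of the 48 members (ligands grey, receptors green). The horizontal axis is the log2 difference of the E2 mean minus the mean of placebo replicates 1 and 2, and the vertical axis is placebo replicate 3 minus that same placebo mean. Ccl25 stands at 4.19 on the vertical axis, Ccl2 at 1.77 on the horizontal axis, and Ccl8 and Cxcr4 lie in the lower left, so that for both placebo replicate 3 deviated in the direction of the E2 tumours. Both axes subtract the same placebo mean and are not independent.

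Macrophage and mast cell markers had lower summed signal in the E2 tumours, as most other marker lists did, beside several ligands with lower means. The log2 of the summed signal of 12 macrophage genes was 10.24 to 10.66 in the E2 tumours and 11.01 to 11.79 in the placebo tumours. Such a sum weights each gene by its probe set intensity, and Lyz2 and Ctss weighed most in it on every array. Lyz2 was 8.24 to 8.71 log2 in the E2 tumours and 9.43 to 10.34 in the placebo tumours. Ctss was 8.04 to 8.33 in the E2 tumours and 9.03 to 9.40 in the placebo tumours. Of these 12, 11 had lower means with E2 and 2 fell at a limma adjusted p under 0.05, Ctss and Ptprc. Leaving out placebo replicate 3, 9 of the 12 fell. In 5 of the 12, every E2 value was below every placebo value (all genes, 11.4%), so the sums separate the groups more than most single genes do. Placebo replicate 3 lay among the E2 values for Adgre1, Csf1r, Mrc1, Fcgr1 and Cd163 and below them for Cd68. None of the 12 was under the lower quartile on all 6 arrays. The 6 mast cell genes summed to 6.996 to 7.10 in the E2 tumours and 7.51 to 8.76 in the placebo tumours, and 6 of them fell without placebo replicate 3, against 0 with it. On that array Kit was 6.21 log2, its highest value, against 5.15 to 5.26 in the E2 tumours. There Cpa3 (4.47), Tpsb2 (4.96), Mcpt4 (4.47) and Ms4a2 (3.75) lay just above the highest E2 value, and Cma1 (4.26) lay among the E2 values. The part of both lists in the values of Ccl3, Ccl5, Ccl8, Cxcl16 and Cxcr4 was not tested. The part of the macrophage list in the values of Ccl2 and Ccl7 was not tested either.

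Other marker lists moved with placebo replicate 3 or with the groups. The 10 neutrophil genes, which include the member Cxcr2, summed to 7.35 to 7.42 in the E2 tumours and 7.61 to 8.23 in the placebo tumours, with 8 highest in placebo replicate 3, and Csf3r fell (difference -0.86 log2, limma adjusted p = 0.0214). The T and natural killer cell list of 10 genes summed to 7.56 to 7.63 in the E2 tumours and 7.52 to 8.17 in the placebo tumours, with 0 past the limma threshold on all 6 arrays and 1 higher without placebo replicate 3, and 2 of its genes lay below the lower quartile on every array. B cell genes (5 measured, 0 called, and 1 lower without placebo replicate 3) summed to 6.33 to 6.46 in the E2 tumours and 6.62 to 6.65 in the placebo tumours. Dendritic cell genes (8, with the member Ccr7, 0 called, and 1 lower without placebo replicate 3) summed to 7.57 to 7.73 in the E2 tumours and 7.81 to 7.89 in the placebo tumours. The 10 fibroblast genes, from cells that commonly make Cxcl12, summed to 11.89 to 12.10 in the E2 tumours and 11.78 to 12.51 in the placebo tumours, with 0 called. Its median difference was -0.49 log2, and without placebo replicate 3 it was -0.76, with 5 of the 10 lower (Col1a1, Col1a2, Col3a1, Lum and Thy1) and 1 higher (Pdgfra).

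The 8 endothelial genes summed to 8.09 to 8.42 in the E2 tumours and 8.71 to 8.86 in the placebo tumours, with 0 called on all 6 arrays and 4 lower without placebo replicate 3. The 8 mesothelial genes, of which Krt7 fell and 7 fell without placebo replicate 3, summed to 9.81 to 10.10 in the E2 tumours and 11.63 to 12.16 in the placebo tumours. The ovarian epithelial list of 8 genes shares Krt7, Krt19 and Wt1 with it and summed to 10.06 to 10.45 in the E2 tumours and 10.61 to 12.89 in the placebo tumours, with 1 lower on all 6 arrays and 2 lower without placebo replicate 3. Adipocyte genes (7, of which 1 fell, and 5 without placebo replicate 3) summed to 7.32 to 7.44 in the E2 tumours and 7.92 to 9.18 in the placebo tumours. The part of these lists in the chemokine values was not tested.

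**Figure D4:**
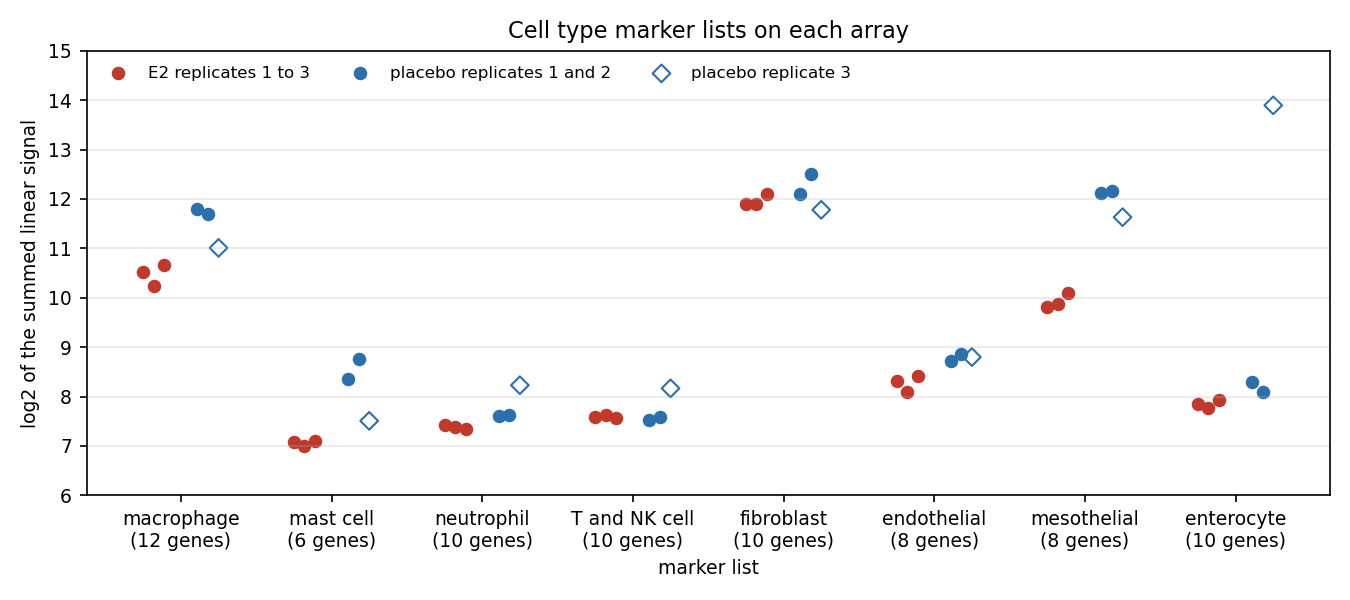
Log2 of the summed linear signal (vertical axis) of 8 marker lists on each array. Red points are E2 tumours, blue points placebo replicates 1 and 2, and open diamonds placebo replicate 3. Macrophage, mast cell, neutrophil, endothelial, mesothelial and enterocyte sums are lower in all 3 E2 tumours than in any placebo tumour. Genes of higher intensity weigh more in each sum, so a sum can separate the groups where many of its genes do not. T and NK cell and fibroblast sums overlap between the groups. The enterocyte sum of placebo replicate 3, 13.89, stands above all other arrays.

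Genes that act with chemokines showed few calls on all 6 arrays. Among 4 measured ligands outside the symbol rule, Rarres2, which encodes the chemoattractant chemerin, fell. It measured 5.08, 4.88 and 5.05 log2 in the E2 tumours, against 7.08, 7.92 and 6.58 in the placebo tumours (difference -2.19 log2, SE 0.33, limma adjusted p = 0.0440). Of 23 receptor signalling genes 2 fell and 0 rose, and without placebo replicate 3 9 fell and 1 rose. The 2 were Rac2, a leukocyte GTPase of cell migration, and Ptk2b, a kinase activated downstream of chemokine receptors.

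Rac2 measured 5.54, 5.60 and 5.50 log2 in the E2 tumours, against 6.18, 6.12 and 6.0 in the placebo tumours (difference -0.55 log2, limma adjusted p = 0.0476). Ptk2b measured 5.47, 5.44 and 5.61 log2 in the E2 tumours, against 6.57, 6.26 and 6.78 in the placebo tumours (difference -1.03 log2, adjusted p = 0.0388). Neither overlapped between the groups, and the median of the list was -0.24 log2, beside -0.01 for all genes.

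The other pathway lists had 0 calls on all 6 arrays. In the list of 8 atypical and further receptors the smallest p belonged to Ccrl2, a non-signalling receptor that binds chemerin (difference -0.41 log2, limma adjusted p = 0.214, and -0.52 without placebo replicate 3, adjusted p = 0.0214). Next came Ackr1, a scavenging receptor of endothelium and red cells (-0.24 log2, adjusted p = 0.398, and -0.15 without that array). In the fit that omits placebo replicate 3, 2 of that list fell. Among 10 proteases and matrix partners, Dpp4, which cleaves and inactivates CXCL12, measured 4.90, 4.98 and 5.42 log2 in the E2 tumours, against 7.97, 6.57 and 10.18 in the placebo tumours. Dpp4 is also a brush border enzyme of the intestine, and its difference of -3.14 log2 (adjusted p = 0.162) went to -2.17 without placebo replicate 3 (adjusted p = 0.00801). Mmp9, a matrix protease that can trim chemokines, differed by 1.39 log2 (adjusted p = 0.189).

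Of 18 inducers and transcription factors, Irf7 of the interferon response differed by -0.53 log2 (limma adjusted p = 0.135). The cytokine gene Il1a differed by -0.37 (adjusted p = 0.193) and lay below the lower quartile on all 6 arrays. When placebo replicate 3 was omitted, 3 of the 18 rose and 2 fell, and the list median was 0.15 log2, against -0.03 with it.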

How the data were processed

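RNA from 6 tumours was hybridised to whole-transcript arrays. The authors deposited 1 log2 intensity for each probe set of an array, and RMA is the method named, per the submitters' processing notes; its software, genome build and probe annotation: not given in the sources used here. The table held 34760 probe sets with 0 missing values, 0 value columns were unmapped, and array medians were 4.84 to 4.97.

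Gene names came from the platform's annotation table, in which 21640 probe sets had 1 symbol, 1321 had several and 11799 had no entry. RefSeq names of GRCm38.p6 changed 0 symbols. The probe set with the highest mean stood for each of 954 genes with several, giving 19937 genes. E2 and placebo were compared with limma 3.58.1 in R 4.3.3 (lmFit, eBayes, group means, no covariates), with p adjusted by Benjamini and Hochberg over all genes, a threshold of 0.05, and differences as E2 minus placebo. The lower quartile of genes on an array served as a floor, which was chosen after the data were seen. Limma p-values set the group difference of a gene against its spread between these tumours, a spread that eBayes adjusts over all genes. Both the number of arrays and the deviation of placebo replicate 3 limit the precision.

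The members and lists were chosen with earlier results of these data known. Values on every array are given for Cxcl12, called members, members whose groups did not overlap and whose means differed by at least 0.5 log2, 6 ligand and receptor pairs and the 6 members of highest percentile. Arrays of others, such as Ccl11, Ccl12, Cxcl1, Cxcl2, Cxcl9 and Cxcl10, were shown after their values were seen. Other pathway genes named are those called, or the 2 of smallest p in a list without calls. Ackr3 and the epithelial, fibroblast and leukocyte markers named were added after their values were seen. A planned reading of cysteine spacing in the proteins was not made.

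The alternatives were each array left out, the replicate number as a block, filters on low means, the mean of probe sets, quantile normalization run again, arrays centred on their median, eBayes with trend and robust settings, weighted arrays, and other thresholds. On simulated data for the same 19937 genes with 200 changed genes, limma recovered 65% of the genes changed by 1 log2 and 91% of those changed by 2, with 10 false calls; the simulation held no array that deviates like placebo replicate 3.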

Additional observations from a re-analysis of the deposited data

How the results depend on the processing

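With 3 tumours per group, the counts of calls turned on single arrays. With each array left out, the number of genes higher with E2 ran from 31 to 1276 and of genes lower from 0 to 1039, against 211 and 65. The lowest came without E2 replicate 1 and the highest without placebo replicate 3. Members called ran from 0 to 2 higher and 0 to 6 lower, and only leaving out placebo replicate 3 gave any. Other pathway genes ran from 0 to 5 higher and 0 to 16 lower (0 and 3 on all arrays), and cell type markers from 0 to 2 higher and 0 to 40 lower (0 and 5 on all arrays).

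The replicate block gave 10 genes higher and 0 lower over all genes, 0 and 0 members, 0 lower pathway genes and 0 lower markers. The deviations of same-numbered arrays from their group means had correlations of -0.03, -0.18 and -0.13, and the labels name no pairing. With 3 arrays per group, these correlations cannot decide whether the numbers pair arrays. Array weights gave 1026 genes higher and 760 lower, 2 members higher and 5 lower, and 3 pathway genes higher and 14 lower. An adjusted p under 0.10 gave 543 and 193 genes, 1 member higher, and 2 pathway genes higher and 6 lower. An unadjusted p under 0.05 with a 1.5-fold change gave 769 and 455 genes, 1 and 4 members, and 5 and 8 pathway genes. Arrays centred on their median gave 342 genes higher. Ccl2 alone among members was called with filters at the 25th percentile or the median of mean level (1 and 1 member higher, with fewer genes tested), with median centring (1 higher) and with a trended and robust variance (1 higher). Of 7 members below the lower quartile of genes on all 6 arrays, 3 lay below the lower quartile of all probe sets.

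Of the 21 members with rows of array values fixed by the naming rule, Ccr10 and Cxcl14 changed sign in some fits. Ccr10 ran from -0.024 (without placebo replicate 1) to 0.19 log2 with an array left out. Cxcl14 ran from -0.20 to 0.24 log2 with an array left out, and was -0.13 with repeated quantile normalization and -0.22 with array weights. The cause of these changes was not tested.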
